A study of Caenorhabditis elegans with 2 samples.

Results

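The 10 genes described here encode subunits of the vacuolar proton pump, or V-ATPase, of the nematode Caenorhabditis elegans, and the measurement was binding of the transcription factor DVE-1 near their 5′ ends. The genes were vha-8, vha-12, vha-13, vha-14 and vha-15 of the V1 sector and vha-1, vha-2, vha-3, vha-4 and vha-16 of the V0 sector, out of 19973 protein-coding nuclear genes in the Ensembl 115 annotation of WBcel235 (ce11). They were selected on the DVE-1-GFP peaks themselves, with the summits and signals in the lists below already known. Their counts and signals are therefore given as a description, without a test.

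ChIP-seq, the sequencing of DNA that an antibody brings down with a chromatin protein, was done in 1 group with 2 biological replicates. The worms were hermaphrodites of strain OP398, with the genotype unc-119(tm4063) III; wgIs398, in which a stably inherited transgene supplies DVE-1 with a GFP-FLAG tag at its C terminus. Late embryos of unknown exact age were used whole, so all cell types were mixed, and sonicated chromatin was precipitated with an anti-GFP antibody. All worms carried the tag and the unc-119 allele, and untagged worms were not analysed here.

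The V-ATPase is a rotary machine with a cytosolic V1 sector that hydrolyses ATP and a membrane-embedded V0 sector that lets protons pass. It acidifies lysosomes, endosomes and secretory compartments. In worms it is known for its high abundance in the excretory canal cell and for roles in the epidermis and intestine. DVE-1 is a homeodomain protein best known from the mitochondrial unfolded protein response.

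The results turn on 5 summits, the positions that the authors give for the peaks nearest vha-8, vha-12, vha-13, vha-15 and vha-1. Sequence within 100 bp of the summit is shown for those at vha-12, vha-8, vha-15 and vha-1, and for vha-14, whose weaker peak missed the authors' threshold. Each stretch is ce11 sequence read in the direction of the gene, which is the plus strand throughout, at chrX:4190638-4190838, chrIV:6790533-6790733, chrX:2237581-2237781, chrIII:9780732-9780932 and chrIII:9507831-9508031. Capitals mark CTGCGTCT, here read as its reverse complement AGACGCAG, and GGTCTC.
vha-12: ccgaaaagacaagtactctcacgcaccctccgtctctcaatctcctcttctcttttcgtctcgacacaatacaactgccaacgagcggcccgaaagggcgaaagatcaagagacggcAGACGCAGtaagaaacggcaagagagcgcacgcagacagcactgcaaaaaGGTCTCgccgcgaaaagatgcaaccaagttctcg
vha-8: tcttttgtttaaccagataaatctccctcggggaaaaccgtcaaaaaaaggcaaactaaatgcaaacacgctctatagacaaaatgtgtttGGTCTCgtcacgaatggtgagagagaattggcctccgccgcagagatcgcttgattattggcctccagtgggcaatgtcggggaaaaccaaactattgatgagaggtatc
vha-15: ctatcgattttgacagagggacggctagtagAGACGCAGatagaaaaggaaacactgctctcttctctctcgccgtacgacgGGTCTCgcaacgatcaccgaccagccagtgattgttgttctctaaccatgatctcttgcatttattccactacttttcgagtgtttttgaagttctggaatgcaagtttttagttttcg
vha-1: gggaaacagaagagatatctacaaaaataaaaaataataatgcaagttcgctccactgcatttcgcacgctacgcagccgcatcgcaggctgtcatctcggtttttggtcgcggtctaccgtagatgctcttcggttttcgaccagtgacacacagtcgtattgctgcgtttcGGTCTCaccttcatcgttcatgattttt
vha-14: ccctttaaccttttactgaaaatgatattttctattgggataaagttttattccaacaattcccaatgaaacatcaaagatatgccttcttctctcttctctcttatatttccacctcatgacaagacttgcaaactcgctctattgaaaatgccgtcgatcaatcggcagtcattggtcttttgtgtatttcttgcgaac

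DVE-1-GFP peaks that passed the authors' reproducibility filter stood upstream of 5 of the 10 pump genes, 4 of them for V1 subunits and 1 for a V0 subunit. The V1 genes were vha-8, vha-12, vha-13 and vha-15, and the V0 gene was vha-1. A gene was counted when a summit lay between 1000 bp upstream and 200 bp downstream of its annotated 5′ end. By the same rule 4.33% of all protein-coding genes (865 of 19973) had a summit in this thresholded list, which holds 1447 peaks. Its peaks are the top 1447, by signal, of the pooled list, which the authors made for both replicates together. The entry level was thus a signal of 78.9. Signal is the enrichment value of the authors' peak caller, and it is compared only within a list.

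In the unfiltered lists most of the genes had a summit. That pooled list, with 30000 peaks, placed a summit at 9 of the 10 genes, against 41.5% of all protein-coding genes. Replicate 1 had a summit at 7 of them, against 22.5% of all genes, and replicate 2 at 9, against 26.8%. Both replicates had one at the same 7 genes, which were all 5 V1 genes and the V0 genes vha-1 and vha-4, against 16.2% of all genes. These longer lists hold background as well as peaks, per the deposited text descriptions.

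**Figure D1:**
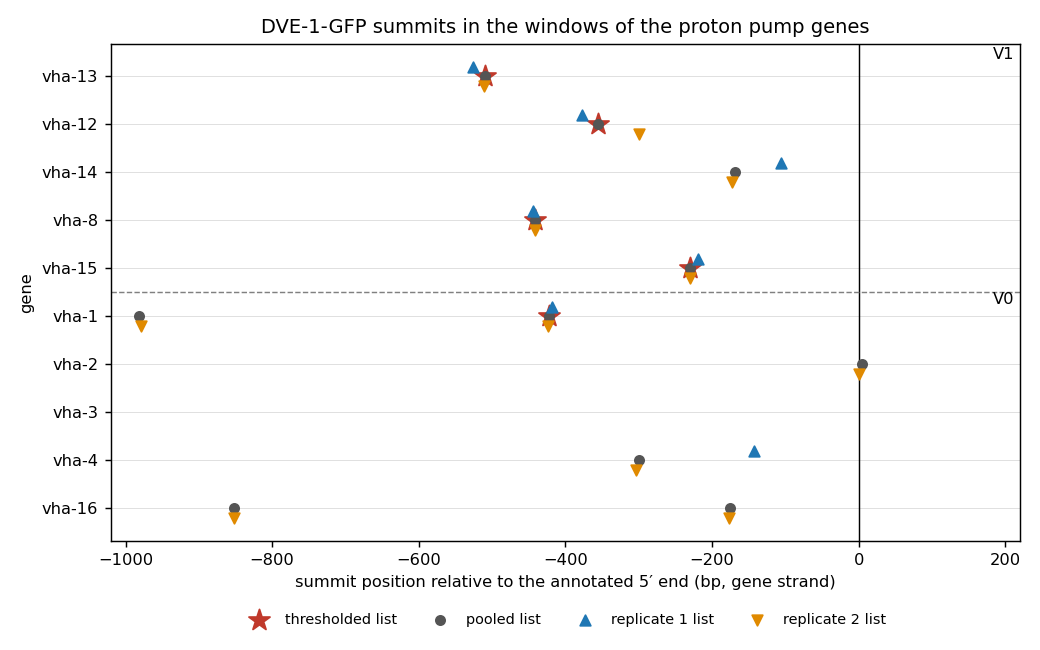
Position of every DVE-1-GFP summit in the windows of the 10 genes, in bp from the annotated 5′ end along the gene (negative is upstream), with V1 genes above the dashed line and V0 genes below. Stars are summits of the thresholded list, circles of the pooled list and triangles of each replicate's own list. The 5 stars lie between 230 and 509 bp upstream.

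In the ATP-hydrolysing head of the V1 sector, the catalytic A subunit is encoded by vha-13 (WBGene00013025, chromosome V, 14351709 to 14354422, plus strand). Its thresholded summit had a signal of 89.5, at rank 1129 of 1447. The list of replicate 1 gave it 31.5, at rank 1855 of 11568, and that of replicate 2 gave it 60.8, at rank 877 of 15750. This was the weakest of the 5 thresholded summits and the only one inside another gene, since it lay 509 bp upstream of vha-13 in the annotated 3′ UTR of cept-2. The end of cept-2, on the same strand, is 226 bp before the start of vha-13.

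Stronger binding was recorded at vha-12, the gene of the nucleotide-binding B subunit (WBGene00006921, chromosome X, 4191094 to 4193144, plus strand). Its summit, 356 bp upstream in intergenic sequence, had a thresholded signal of 135.6 at rank 430. The signal was 43.5 in replicate 1, at rank 865, and 95.5 in replicate 2, at rank 294, the highest of the 10 genes in that replicate. The replicates placed this summit 77 bp apart, at 377 and 300 bp upstream. No other gene of any annotated type had the vha-12 summit in its window, and the nearest protein-coding gene upstream, mrp-6, begins 4338 bp away on the other strand.

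Among the V1 genes chosen here, the stalk genes had both the highest and the lowest signals of the pooled list. The peripheral-stalk E subunit is encoded by vha-8 (WBGene00006917, chromosome IV, 6791074 to 6792455, plus strand), which had a thresholded signal of 144.5 at rank 359. Replicate 1 gave it 67.1 at rank 280, the highest of the 10 genes there, and replicate 2 gave 75.5 at rank 554. The 3 lists placed the summit within 441 to 444 bp upstream. It was shared with C17H12.2, a divergent gene (chromosome IV, 6786788 to 6790488, minus strand) whose 5′ end is nearer, at 145 bp.

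The central rotor D subunit is encoded by vha-14 (WBGene00010130, chromosome III, 9508100 to 9509757, plus strand). Its pooled summit, 169 bp upstream, had a signal of 62.9 at rank 2300, below the entry level of 78.9. Replicate 1 gave 33.5 at rank 1595 and replicate 2 gave 34.9 at rank 2655, at positions 66 bp apart. In replicate 1 this signal was above that of vha-13, whose peak was thresholded, and in replicate 2 it was below. Of the 10 genes, vha-13 was the weakest inside the authors' threshold and vha-14 the strongest outside it. Their pooled ranks were 1129 and 2300, with the threshold at rank 1447.

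The H subunit, a regulator of pump activity, is encoded by vha-15 (WBGene00020507, chromosome X, 2237911 to 2240255, plus strand). Its thresholded signal was 106.8 at rank 775, and the summit was the closest of the 5 to its gene, at 230 bp upstream. Replicate 1 gave 38.6 at rank 1158 and replicate 2 gave 72.0 at rank 620, with summits 11 bp apart. The summit was intergenic and lay in the window of no other gene.

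Among the V0 genes, a thresholded summit stood only at vha-1, which encodes a proteolipid of the proton-carrying c ring (WBGene00006910, chromosome III, 9781254 to 9781763, plus strand). The signal was 117.7 at rank 616, with 39.6 at rank 1085 in replicate 1 and 77.7 at rank 513 in replicate 2. Summits in the lists lay 418 to 424 bp upstream, in the 899 bp between vha-1 and the divergent gene sqv-3. The window of sqv-3 (chromosome III, 9778782 to 9780354, minus strand) held the same summit at 478 bp, so it was slightly nearer to vha-1. A further, weaker pooled summit (signal 40.6, rank 5608) lay 981 bp upstream, within coding sequence of sqv-3.

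The second ring gene of this locus, vha-2 (WBGene00006911, chromosome III, 9782164 to 9783224), begins 910 bp downstream of the vha-1 start on the same strand, and the genes are 400 bp apart. It had no thresholded summit in its window, and the vha-1 summit lay 1332 bp upstream of it. In the pooled list a summit with signal 30.6, at rank 10886, lay 5 bp downstream of its 5′ end, in its coding sequence. Replicate 2 had this summit, with signal 35.4 at rank 2549, and replicate 1 had none.

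No summit of any of the 4 lists fell in the window of the third ring gene, vha-3 (WBGene00006912, chromosome IV, 2315460 to 2315945, minus strand). Its nearest pooled summit, at rank 14711, was 585 bp downstream of its 5′ end, past the end of the gene and before vha-11, the V1 gene that follows it on the same strand. In replicate 2 the nearest summit lay 1051 bp upstream, just outside the window, with signal 40.1 at rank 2012. That is beyond the 5′ end of the divergent gene Y38F2AL.12, which is 628 bp from that of vha-3. The signal of this summit was above those of vha-2, vha-14, vha-16 and vha-4 in the same list. The nearest thresholded summit was 73166 bp away. The coding sequences of vha-2 and vha-3 were 85.1% identical over 483 aligned bases. How the authors treated reads that map to several places is not given in the sources used here, and its part in the vha-2 and vha-3 values was not tested.

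The remaining V0 genes had weak summits. For vha-4, which encodes the c″ proteolipid (WBGene00006913, chromosome II, 7878082 to 7879316, minus strand), the pooled summit had a signal of 38.8 at rank 6205 and lay 300 bp upstream, in the 5′ UTR of the divergent gene T01H3.5. Replicate 1 gave 17.7 at rank 7834 and replicate 2 gave 25.5 at rank 5110, but their summits were 161 bp apart, the widest shift among the 7 genes found in both replicates. For vha-16, the gene of the d subunit that links ring and rotor (WBGene00016258, chromosome I, 5079910 to 5082279, minus strand), the pooled signal was 44.2 at rank 4631, 176 bp upstream. Replicate 2 gave it 29.3 at rank 3810, and replicate 1 had no summit there.

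**Figure D2:**
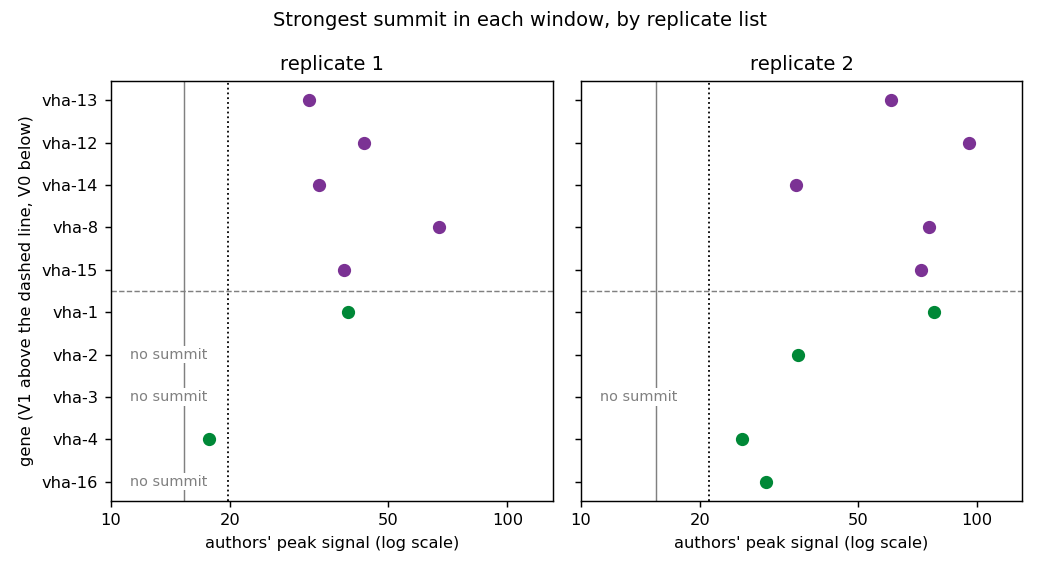
Signal of the strongest summit in the window of each gene, in the list of replicate 1 and of replicate 2, on log axes that are not comparable with each other. V1 genes (purple) are above the dashed line and V0 genes (green) below, the dotted line is the list's median signal and the grey line its lowest. All 5 V1 genes lie above the median in both replicates, and vha-1 is the only V0 gene that does.

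In the pooled list, every chosen V1 gene had a higher signal than any chosen V0 gene other than vha-1. This did not extend to the V1 genes that were not chosen, of which vha-10, vha-11 and spe-5 lay below vha-16 and vha-4. The chosen V1 genes had a median pooled signal of 106.8 and a range of 62.9 to 144.5. The 4 chosen V0 genes with a summit had a median of 41.5 and a range of 30.6 to 117.7. The chosen genes of the sectors overlapped through vha-1, whose signal lay within the V1 range. In replicate 1 the signals of the chosen V1 genes ran from 31.5 to 67.1, while vha-1 had 39.6 and vha-4 had 17.7. In replicate 2 they ran from 34.9 to 95.5, with vha-1 at 77.7, vha-2 at 35.4, vha-16 at 29.3 and vha-4 at 25.5, so that vha-2 was above vha-14 there. The difference between the chosen V1 and V0 genes was not tested, since they were chosen with these values in view.

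The order of the genes differed between the replicates. From the highest signal down, replicate 1 had vha-8 and vha-12, then vha-1, vha-15, vha-14, vha-13 and vha-4. Replicate 2 had vha-12, vha-1, vha-8, vha-15, vha-13, vha-2, vha-14, vha-16 and vha-4. The same 4 genes headed both lists, vha-1 together with the V1 genes vha-8, vha-12 and vha-15, and with 1 value per replicate no order among these 4 can be set against an error. All 5 thresholded peaks were overlapped by at least 1 bp in both replicate lists. This overlap is not independent of the authors' reproducibility filter. Requiring it for every thresholded peak took the share of all genes only from 4.33% to 4.28%.

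Signals at the pump genes lay within the range of the other bound genes. The median thresholded signal over the 865 genes with such a summit was 108.4, and over the 5 pump genes it was 117.7. Ranked by their strongest summit among these 865 genes, vha-8 was at 171, vha-12 at 224, vha-1 at 353, vha-15 at 446 and vha-13 at 666. Among the 8286 genes with a pooled summit, vha-14 was at 1334, vha-16 at 2511, vha-4 at 3085 and vha-2 at 4455. The thresholded summits lay 230 to 509 bp upstream with a median of 422 bp. Over all 865 genes the median was 264 bp upstream, with quartiles at 146 and 466 bp, so 4 of the 5 pump genes lay within the quartiles and vha-13 was farther away. Trans-splicing is common in worms, and the start of transcription can lie upstream of the annotated 5′ end.

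Sharing of summits was limited to divergent neighbours. Of the 5 thresholded summits, those at vha-8 and vha-1 each lay in the window of 1 further gene, C17H12.2 and sqv-3, and the other 3 in no further window. Among all 639 thresholded summits in promoter windows, 216 (33.8%) lay in those of several protein-coding genes. No tRNA, snoRNA or other non-coding gene had any of the 5 summits in its window.

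The remaining 12 genes of the pump had no thresholded summit, a count close to what the share of 4.33% among all genes would give. They comprised the V1 genes vha-9, vha-10, vha-11, vha-18 and spe-5, the V0 genes vha-5, vha-6, vha-7, vha-17 and unc-32, and the accessory genes vha-19 and vha-20. In all, 4 of 10 V1 genes and 1 of 10 V0 genes of the whole pump had a thresholded summit, and these 5 are all among the members chosen with the values known. Pooled summits stood at 8 of these 12 genes (66.7%), against 41.5% of all protein-coding genes. These had a median signal of 27.4 and a range of 20.4 to 47.1, all below the 62.9 of vha-14 and below the entry level of the thresholded list.

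By pooled signal the strongest of these 12 was vha-9, the gene of the V1 F subunit. Its summit had 47.1 at rank 4066, 223 bp upstream. It had 26.2 in replicate 1, at rank 2815, and 19.3 in replicate 2, at rank 9582. Next was vha-19, an accessory subunit gene, with 45.5 at rank 4367. It had 17.5 in replicate 1, at rank 8010, and 24.9 in replicate 2, at rank 5376. In replicate 2 both vha-19 and vha-10 were above vha-9. Both replicates had a summit at 3 of these 12 genes (25%), against 16.2% of all protein-coding genes. The 3 were vha-9, vha-19 and unc-32, which encodes an a subunit of V0. At unc-32 the summits of the replicates were 457 bp apart. The genes vha-5, vha-7, vha-17 and vha-18 had no summit in their windows in any list.

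**Figure D3:**
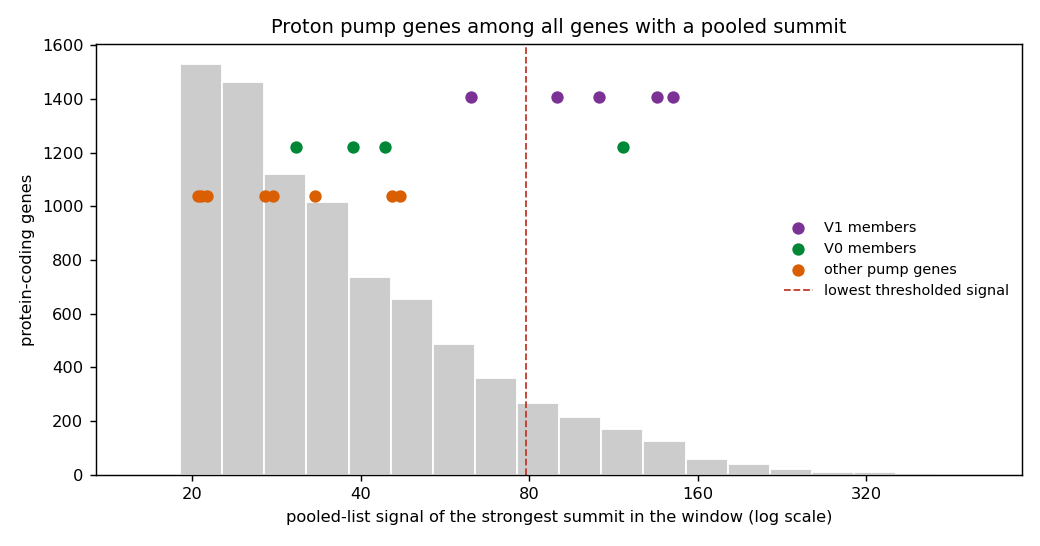
Number of protein-coding genes (bars) by the pooled-list signal of the strongest summit in their window, on a log axis, with the V1 members (purple), V0 members (green) and other pump genes (orange) placed above at their own signals. The dashed line is the lowest thresholded signal, 78.9. It has 4 V1 members and vha-1 to its right, and the 8 other pump genes with a summit lie at or below 47.1.

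The sequence around the 5 thresholded summits held few of the 8 motifs listed for the search, each read on both strands within 150 bp of the summit. CTGCGTCT matched at vha-12, 21 bp from the summit, and at vha-15, 65 bp away. This motif was in 16.04% of the 1440 nuclear thresholded windows and in 3.78% of stretches of 301 bp directly upstream of all genes. TATAAA matched at vha-13 (96 bp) and vha-8 (146 bp), and it was in 19.03% of thresholded windows and 39.6% of upstream stretches. The E-box CACGTG, the core of sites known for the lysosomal regulator HLH-30, matched at none of the 5. It was in 6.18% of thresholded windows and 5.74% of upstream stretches, and TCACGTGA, which includes it, was in 0.972% and 0.756%.

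TGATAA, which GATA factors bind, the homeodomain-type core TAATTA, the CRE-type word TGACGT and the worm telomere unit TTAGGC also had no match at the 5 summits. They were in 15.3%, 5.76%, 8.40% and 25.5% of thresholded windows, and in 30.8%, 17.4%, 10.1% and 6.56% of upstream stretches. The weaker pooled peak at vha-4 held CACGTG and TAATTA, 74 and 66 bp from its summit, and that at vha-16 held TAATTA 131 bp away. At vha-14 and vha-2 none of the 8 matched. A match is only a run of letters, and the absence of one says nothing of the factor.

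GGTCTC, a word picked out after the member sequences had been read, was at 4 of the 5 thresholded summits. It ran in the same direction relative to the pump gene each time. Relative to C17H12.2 and sqv-3, the divergent genes that share the vha-8 and vha-1 summits, it ran the other way. It lay 6 bp from the summit at vha-8, 15 bp at vha-15, 70 bp at vha-12 and 76 bp at vha-1, and vha-13 had none. It was in 14.8% of all thresholded windows and in 8.17% of upstream stretches. The pooled peaks at vha-16 and vha-2 also held it, 6 and 148 bp from the summit, both on the other strand. Those at vha-14 and vha-4 did not. Since the word was chosen for its presence in these sequences, its count carries no weight of its own.

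Base composition also varied among the windows. G and C made up 52.5% of the 301 bp at vha-13, 49.2% at vha-12, 42.9% at vha-15, 42.5% at vha-8 and 42.2% at vha-1. The median over all thresholded windows was 43.5%, and over upstream stretches 33.6%. The windows at the weaker pooled summits had 46.8% at vha-2, 40.9% at vha-16, 37.5% at vha-4 and 31.9% at vha-14. The 5 thresholded windows thus lay on both sides of the median of all bound sites. The place of vha-14 beside upstream stretches turned with the window, since within 100 bp of the summit it had 36.3%, against a median of 32.8% for upstream stretches of the same length.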

How the data were processed

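ChIP-seq of DVE-1-GFP was analysed from 4 deposited ce11 lists. Per the text descriptions deposited with them, these were 1 list of peaks and background for each of the 2 replicates, 1 for both replicates together and 1 thresholded by IDR (irreproducible discovery rate), made against a control alignment. Neither the aligner nor the peak caller, nor any IDR setting, is given in the sources used here. The signal is the authors' own value per peak. The q-value column of the deposited lists fell below 0, so it was kept as a score and not used. The ce10 lists were not used. The lists carry no read totals, which leaves the depth unknown.

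Summits (start plus the offset column) were assigned to every protein-coding gene of Ensembl 115 whose window held them (1000 bp before to 200 bp after the 5′ end). The assignment was tested on simulated data. Members, gene lists and 8 motifs were chosen with earlier results of these data known, and GGTCTC after the sequences were read. The naming rule took all members and the genes sharing a thresholded summit with one. It gave other pump genes and regulators values only at a thresholded summit, which none had. Values for vha-9, vha-19, unc-32 and the regulators were added after the values were seen. So were the names of the remaining pump genes and of the neighbours cept-2, mrp-6, T01H3.5 and Y38F2AL.12. Sequences are from the RefSeq copy of WBcel235. Python 3.11.15, numpy 2.4.6, pandas 2.3.3 and matplotlib 3.10.9 were used.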

Additional observations from a re-analysis of the deposited data

How the results depend on the processing

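The count of 5 members with a thresholded summit fell to 3 among peaks above the list's median signal, where vha-13 and vha-15 were lost and 2 V1 members were left. It was 4 with a window of 500 bp upstream to 100 bp downstream, without vha-13, and 4 with only the nearest gene assigned, without vha-8. With 2000 bp upstream to 500 bp downstream it was 6, as the vha-1 summit then also reached vha-2, which made 2 V0 members, and 1 other pump gene, unc-32, gained a summit. The share of all genes was 3.29% with the narrow window, 6.19% with the wide one, 2.08% above the median signal, 4.67% with the nearest gene, 4.70% with any transcript's 5′ end and 4.80% with any base of the peak. In place of the thresholded list, the 1447 strongest peaks of a single replicate were also used. Those of replicate 2 gave 5 members, against 4.16% of all genes. Those of replicate 1 gave 4, without vha-13, against 4.32%. Signals of these lists are on other scales, so no median signal was computed from them. Start codons, other transcripts and peaks found in both replicates left the same 5 members, against 4.26%, 4.70% and 4.28% of all genes. The count of members with a pooled summit went from 9 to 8 with the narrow window and to 10 with the wide one, which took in vha-3. Members with a summit in both replicate lists went from 7 to 6 and to 9 with these windows. The matching shares of all genes in those lists were not computed. No paired analysis was possible because there is 1 group. Unknown depth and the lack of an untagged control limit all values.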

Other observations

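Genes for 5 transcription factors known to act on proton pump, excretory or lysosomal genes, or in the foregut, were also looked up, and none had a thresholded summit, where 4.33% of all genes do. The pooled list had a summit at 4 of the 5, against 41.5% of all genes, and so few genes say little beside that share. The gene pha-4, of the foregut forkhead factor, had a signal of 41.9 at rank 5208, 252 bp upstream, and both replicates had a summit there, though 363 bp apart. The gene mxl-3, of a basic helix-loop-helix repressor of lysosomal genes, had 37.2 at rank 6848, 312 bp upstream, also with a summit in both replicates, 367 bp apart. The gene hlh-30, of the worm counterpart of the mammalian factor TFEB, had 28.9 at rank 12405, and only replicate 2 had a summit. The nuclear receptor gene nhr-31 had 23.0 at rank 20974, with no summit in the window in either replicate. The homeobox gene ceh-6 had none in its window in any list. Its nearest pooled summit lay 1169 bp upstream, just outside the window, with signal 36.4 at rank 7214. The nearest summits of replicates 1 and 2 were 1178 and 1162 bp upstream.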
